A study of Mus musculus with 16 samples.

Results

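The TNF superfamily is the group of ligands and receptors built around tumor necrosis factor (TNF). It was read here in the epididymal white fat of male mice, a visceral depot. Members were the protein-coding genes whose symbol is Tnf, Lta, Ltb, Ltbr, Cd40, Cd40lg, Cd27, Cd70, Fas or Fasl or begins with Tnfsf, Tnfrsf or Tnfaip. This gave 50 members among 45777 genes, of which 21949 were protein-coding, and 47 members were among the 19189 genes that passed the filter on low counts. The members comprise 18 ligands, 5 receptors with a death domain, 15 receptors without one, 4 genes counted as decoy receptors or their neighbor (Tnfrsf11b, Tnfrsf22, Tnfrsf23 and Tnfrsf26) and 8 genes of the TNF-induced protein symbols (Tnfaip). The Tnfaip genes share a name with the family and not its protein fold.

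RNA was sequenced from 4 groups of 4 libraries each. Mice with adipocyte-specific overexpression of leukotriene A4 hydrolase (A-LTA4HOE, here OE) and their control mice (Ctrl) all received a high-fat diet with 60 kcal% fat from 4 weeks of age. OE_20wk and Ctrl_20wk mice had eaten it for 16 weeks and were 20 weeks old, and OE_8wk and Ctrl_8wk mice had eaten it for 4 weeks and were 8 weeks old. No group on a standard diet was analysed here, so age and time on the diet cannot be told apart. The labels do not say whether a library holds 1 mouse or several, so p-values measure the spread between these libraries. Neither the promoter of the transgene, nor the strain, nor the genotype of the control mice beyond the word control is given in them.

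TNF superfamily ligands are mostly trimers made as membrane proteins, some of which are cut loose by proteases such as ADAM17. Their receptors recruit TRAF adaptors, which lead to NF-kappaB and MAP kinase signalling, and the receptors with a death domain can also start cell death. In obese adipose tissue TNF is known as a product of macrophages that lowers insulin signalling in adipocytes. Other members govern B cells (BAFF and APRIL, the products of Tnfsf13b and Tnfsf13), osteoclasts and related myeloid cells (RANK, the product of Tnfrsf11a) and lymphoid tissue (the lymphotoxins).

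Promoter sequences are shown for Tnf and Ltb, which lie side by side on chromosome 17, for the start shared by Tnfsf12 and Tnfsfm13, and for Tnfrsf11a, the member with the largest rise with age. Each is the stretch of 250 bases before the RefSeq start on GRCm38.p6, written 5′ to 3′ on the gene's strand. The start is that of a RefSeq transcript, which for Tnfrsf11a lies 50 bases inside the span of the gene. Capitals mark matches to GGGNNNTTC, a short form of the NF-kappaB motif, on either strand, so that a match on the other strand reads as its reverse complement.
Tnf (chr17:35202008-35202257, minus strand): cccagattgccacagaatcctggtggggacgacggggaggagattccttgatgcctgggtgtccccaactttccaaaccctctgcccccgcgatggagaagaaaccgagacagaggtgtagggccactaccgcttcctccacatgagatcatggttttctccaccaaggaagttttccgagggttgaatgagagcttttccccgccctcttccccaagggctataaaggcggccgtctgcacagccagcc
Ltb (chr17:35194257-35194506, plus strand): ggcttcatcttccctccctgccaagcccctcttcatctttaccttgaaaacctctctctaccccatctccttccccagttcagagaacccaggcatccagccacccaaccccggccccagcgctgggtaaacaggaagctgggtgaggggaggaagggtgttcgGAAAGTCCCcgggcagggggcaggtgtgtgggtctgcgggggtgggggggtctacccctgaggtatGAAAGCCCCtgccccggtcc
Tnfsfm13 (chr11:69696099-69696348, minus strand): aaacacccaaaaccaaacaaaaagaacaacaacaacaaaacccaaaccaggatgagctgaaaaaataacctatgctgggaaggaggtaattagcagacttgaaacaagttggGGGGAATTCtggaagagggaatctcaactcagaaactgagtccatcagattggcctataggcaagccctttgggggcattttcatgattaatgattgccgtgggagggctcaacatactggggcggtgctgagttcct
Tnfrsf11a (chr1:105780473-105780722, plus strand): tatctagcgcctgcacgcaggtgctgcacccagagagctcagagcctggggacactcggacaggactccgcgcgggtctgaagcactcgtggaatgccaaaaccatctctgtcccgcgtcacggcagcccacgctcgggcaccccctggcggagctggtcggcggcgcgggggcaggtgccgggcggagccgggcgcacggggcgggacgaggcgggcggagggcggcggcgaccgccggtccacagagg
The Ltb stretch held matches that began 86 and 20 bases before the start, and the Tnfsfm13 stretch held a match 138 bases before it. The single Tnf match began 4 bases past the start and so lies outside the stretch printed. The Tnfrsf11a window held no match to these letters. Promoter windows, which run from 250 bases before to 50 bases after a start, were at hand for 39 of the 50 members. At least 1 match was present in 10 of these 39 genes (25.6%), against 4282 of 27025 genes (15.8%) in the RefSeq table, as a description of the letters only.

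Libraries held between 33626901 and 67576994 counts. Lta4h, the overexpressed gene, ranged from 239 to 286 CPM (counts scaled to a common library size by TMM) in OE_20wk libraries against 82.4 to 95.4 CPM in Ctrl_20wk libraries, and from 251 to 427 CPM in OE_8wk libraries against 79.4 to 104 CPM in Ctrl_8wk libraries. Adipocyte markers summed to between 9815 and 35229 CPM in the 16 libraries, with none of the 10 genes at 0. OE_8wk replicate 2 and Ctrl_8wk replicate 4 held the most transcripts of epididymal epithelium, with sums over 12 genes of 2706 and 4100 CPM. Ctrl_8wk replicate 3 followed with 208 CPM, and the remaining libraries had 0.162 to 21.9 CPM. Below, the libraries with epididymal transcripts are OE_8wk replicate 2 and Ctrl_8wk replicate 4. OE_20wk replicate 1 had the lowest sum of 12 macrophage markers among the 20-week libraries, 3607 CPM. Without these 2 libraries, 16 members were called between OE_20wk and OE_8wk and 20 between Ctrl_20wk and Ctrl_8wk. Ctrl_8wk replicate 3 stayed in that fit, so it was not free of epididymal transcripts. The members that moved across the threshold are named below.

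The most abundant member was the receptor Tnfrsf1a, the death-domain receptor for TNF, with a median of 231 TPM (191 to 265) over the 16 libraries. Levels of different genes are compared in the authors' TPM, which scales counts by gene length and library size. The lymphotoxin beta receptor gene Ltbr stood at 86.5 TPM (78.6 to 102), which did not overlap Tnfrsf1a. Tnfrsf12a, whose product Fn14 binds the ligand TWEAK, had 58.0 TPM (28.7 to 85.4), and Tnfrsf1b, the second TNF receptor, had 46.7 TPM (15.5 to 101). The ranges of these last 2 receptors overlapped each other and that of Fas, the receptor for Fas ligand, at 36.5 TPM (24.8 to 57.0).

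Among the 18 ligands 9 had a median under 1 TPM. Tnfsf12, which encodes TWEAK, led the ligands at 40.7 TPM (21.8 to 101), followed by the read-through gene Tnfsfm13 at 17.4 TPM (11.3 to 41.3), Tnfsf10 (TRAIL) at 8.84 TPM (5.05 to 16.4) and Tnfsf13 (APRIL) at 7.44 TPM (3.27 to 19.3). Tnf itself had 2.96 TPM (0.686 to 6.86), and its range overlapped that of Tnfsf13b, at 4.73 TPM (2.44 to 8.42), and of Ltb, at 4.64 TPM (2.52 to 26.7). Of the 50 members, 1 had a median of 100 TPM or more, 14 lay from 10 to under 100 TPM, 20 from 1 to under 10 TPM and 15 under 1 TPM. Among these 15 were Cd40lg, Tnfsf4 and Cd70, ligands of activated lymphocytes and antigen-presenting cells, which were not tested. Their counts per library were 0 to 17, 0 to 8 and 0 to 4.

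**Figure D1:**
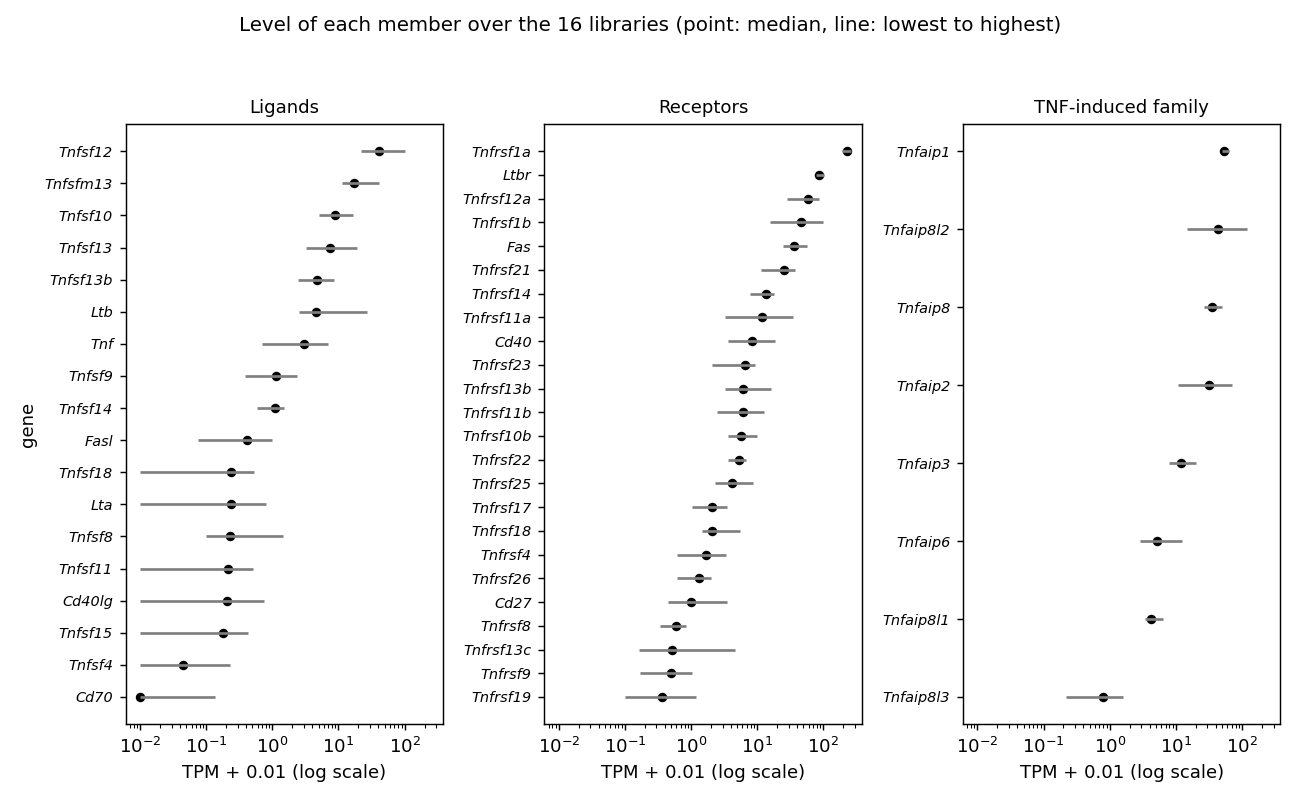
Level of the 50 members in the authors' TPM, with 0.01 added and on a log scale. Points are medians over the 16 libraries and lines run from the lowest to the highest library. Tnfrsf1a lies at the top at 231 TPM, and Cd70 at the bottom has a median of 0.

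Summed over the 50 members, TPM averaged 1044.5 ± 127 in OE_20wk libraries and 725 ± 71.5 in OE_8wk libraries (SD, n = 4 each). The same sum was 1086 ± 58.9 TPM in Ctrl_20wk and 721 ± 85.5 TPM in Ctrl_8wk libraries (SD, n = 4 each). The 20-week libraries ranged from 869 to 1165 TPM and the 8-week libraries from 637 to 848 TPM, so the ages did not overlap, whereas the genotypes did at each age.

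The comparison of 20 with 8 weeks asked what changed in each genotype over the longer diet. In OE mice 14 members rose and 0 fell between OE_20wk and OE_8wk, by edgeR's quasi-likelihood test with Benjamini-Hochberg adjustment over all genes at 0.05. That is 29.8% of the members tested, where 13.1% of all genes tested rose and 9.91% fell (23% in either direction). At an unadjusted p under 0.05 the OE mice had 1 lower member, Tnfrsf19, which DESeq2 called (adjusted p = 0.0364). In Ctrl mice 17 members rose (36.2%) and 2 fell between Ctrl_20wk and Ctrl_8wk, against 19.6% of all genes that rose and 21.3% that fell (40.9% in either direction). An unadjusted p under 0.05 was reached by 17 members in OE mice and 22 in Ctrl mice, against 36.8% and 50.2% of all genes. DESeq2 called 16 members higher and 1 lower in OE mice, where it called 15.2% and 14.5% of all genes, and 17 higher and 2 lower in Ctrl mice, where it called 21% and 24.8%. The median log2 fold change of the members was 0.21 in OE mice, against -0.03 over all genes, and 0.38 in Ctrl mice, against -0.05 over all genes. All 14 members that rose in OE mice were among the 17 that rose in Ctrl mice, so that the overlap was 100% of the OE list and 82.4% of the Ctrl list. The same overlap over all genes was not computed. Tnfrsf13c, Tnfrsf23 and Tnfsf8 were called in Ctrl mice and not in OE mice.

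Members whose OE_20wk libraries all lay above all OE_8wk libraries numbered 12, with 2 below (Tnfsf11 and Tnfrsf17, neither called), where 12.9% of all genes lay above and 9.5% below. In Ctrl mice 16 members lay above and 1 below, where 18.5% of all genes lay above and 14.8% below.

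**Figure D2:**
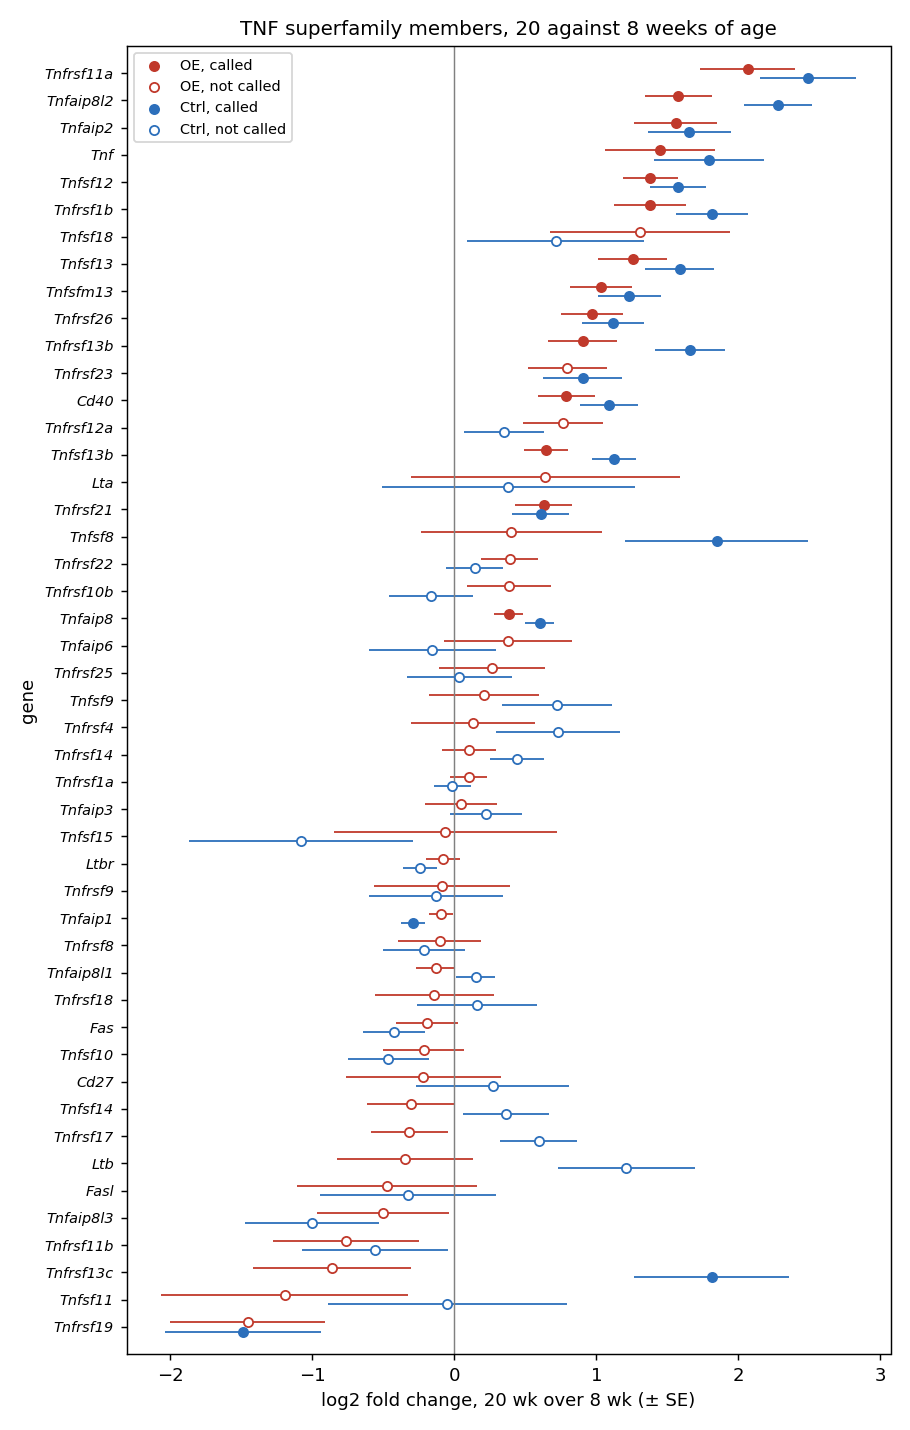
Log2 fold change of 20 over 8 weeks for the 47 members tested, with bars of 1 SE, in OE (red) and Ctrl mice (blue). Filled points passed the threshold: 14 in OE mice, all to the right of 0, and 17 to the right and 2 to the left in Ctrl mice. Genes are ordered by their value in OE mice, with Tnfrsf11a at the top.

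Of the 18 ligands 15 were tested, and 5 rose in OE mice and 6 in Ctrl mice, with 0 falling in either genotype. The risers were Tnf, the TWEAK gene Tnfsf12, the B-cell factors Tnfsf13 and Tnfsf13b and the read-through Tnfsfm13 in both genotypes, and Tnfsf8 (CD30 ligand) in Ctrl mice.

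Tnf (gene ID 21926, chromosome 17, 35199367 to 35202007) rose in both genotypes. Replicates 1 to 4 had 2.65, 3.41, 3.54 and 4.42 CPM in OE_20wk mice, against 1.91, 1.83, 0.621 and 0.764 CPM in OE_8wk mice. In Ctrl mice Tnf had 3.53, 5.28, 3.72 and 4.19 CPM at 20 weeks, against 2.04, 1.17, 0.771 and 0.853 CPM at 8 weeks. Every 20-week library lay above every 8-week library of its genotype. The log2 fold change was 1.45 ± 0.39 (SE) in OE mice, with an adjusted p of 0.0151 by edgeR, a 2.73-fold rise. It was 1.79 ± 0.39 in Ctrl mice, with an adjusted p of 0.00277 by edgeR, a 3.47-fold rise. The call in OE mice was lost without OE_20wk replicate 4 (adjusted p = 0.0507) or without OE_8wk replicate 4 (adjusted p = 0.0508).

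Tnfsf12 (gene ID 21944, chromosome 11, 69686240 to 69696098) encodes TWEAK, a ligand made by macrophages among other cells that acts on Fn14. It stood at 39.0, 57.2, 54.5 and 79.1 CPM in OE_20wk mice, against 21.0, 23.7, 23.6 and 20.0 CPM in OE_8wk mice. Ctrl_20wk mice had 48.3, 69.7, 70.7 and 42.9 CPM, against 21.2, 19.1, 19.3 and 18.3 CPM in Ctrl_8wk mice. The 8-week libraries were tightly grouped and the 20-week libraries were all higher and more spread. Tnfsf12 was 2.60-fold higher in OE_20wk than OE_8wk mice (log2 1.38 ± 0.19 SE, edgeR adjusted p = 0.000551) and 2.98-fold higher in Ctrl_20wk than Ctrl_8wk mice (log2 1.57 ± 0.20 SE, edgeR adjusted p = 8e-05).

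Tnfsf13 (gene ID 69583, chromosome 11, 69682577 to 69685554) encodes APRIL, a ligand that sustains plasma cells through the receptors TACI and BCMA. Its values were 6.14, 12.4, 7.73 and 14.9 CPM in OE_20wk mice, against 3.72, 5.17, 4.38 and 4.00 CPM in OE_8wk mice. In Ctrl_20wk mice they were 9.15, 12.6, 11.8 and 10.1 CPM, against 3.53, 2.85, 3.90 and 4.24 CPM in Ctrl_8wk mice. The groups did not overlap in either genotype, and the OE_20wk libraries were the most spread. The rise was 2.39-fold in OE mice (log2 1.26 ± 0.24 SE, edgeR adjusted p = 0.00262) and 3.0-fold in Ctrl mice (log2 1.59 ± 0.25 SE, edgeR adjusted p = 0.000297).

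The span of the read-through gene Tnfsfm13 (chromosome 11, 69682577 to 69696098) covers both Tnfsf12 and Tnfsf13, so reads of these 3 genes cannot be assigned with certainty and their rises are not separate observations. Tnfsfm13 had 17.1, 34.2, 27.1 and 42.7 CPM in OE_20wk mice, against 13.4, 17.9, 15.1 and 12.9 CPM in OE_8wk mice. It had 28.7, 38.6, 37.8 and 27.8 CPM in Ctrl_20wk mice, against 15.5, 13.0, 12.8 and 15.2 CPM in Ctrl_8wk mice. OE_20wk replicate 1 lay among the OE_8wk values, and the Ctrl groups did not overlap. The log2 fold changes were 1.03 ± 0.22 in OE mice and 1.23 ± 0.22 in Ctrl mice (SE), with edgeR adjusted p-values of 0.00461 and 0.000777.

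Tnfsf13b (gene ID 24099, chromosome 8, 10006229 to 10036000) encodes BAFF, the survival factor of B cells. Libraries of OE_20wk mice had 4.17, 5.04, 4.69 and 4.53 CPM, against 2.50, 3.18, 2.87 and 3.23 CPM in OE_8wk mice. Those of Ctrl_20wk mice had 6.43, 5.23, 6.66 and 5.37 CPM, against 2.28, 2.59, 2.61 and 3.37 CPM in Ctrl_8wk mice. The ages did not overlap in either genotype. BAFF transcripts rose 1.56-fold in OE mice (log2 0.64 ± 0.15 SE, edgeR adjusted p = 0.00867) and 2.18-fold in Ctrl mice (log2 1.12 ± 0.15 SE, edgeR adjusted p = 0.000142).

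Tnfsf8, the gene of CD30 ligand, had 0.466, 0.963, 0.34 and 0.248 CPM in OE_20wk mice and 0.198, 0.269, 0.237 and 0.808 CPM in OE_8wk mice, a log2 difference of 0.40 ± 0.64 (SE, edgeR adjusted p = 0.675). In Ctrl_20wk mice it had 2.75, 0.433, 0.427 and 1.17 CPM, against 0.292, 0.389, 0.34 and 0.298 CPM in Ctrl_8wk mice, a log2 fold change of 1.85 ± 0.65 (SE, edgeR adjusted p = 0.0346). Ctrl_20wk replicate 1 was the highest library, and without it the log2 fold change was 1.03 and the adjusted p 0.183. The call was also lost without Ctrl_20wk replicate 4 or any 1 of the 4 Ctrl_8wk libraries, with adjusted p-values from 0.0543 to 0.0694. Nor did it hold in edgeR fits without the low-count filter (adjusted p = 0.0532) or with a block for replicate number (0.0879). Of the ligands not called, Tnfsf9 (the ligand of CD137) lay higher in every Ctrl_20wk library, at 0.708 to 1.39 CPM, than in Ctrl_8wk libraries, at 0.476 to 0.691 CPM, with an edgeR adjusted p of 0.148. Tnfsf10, Fasl, Lta, Tnfsf11, Tnfsf14, Tnfsf15 and Tnfsf18 did not pass in either genotype, and Ltb is described with the genotype comparison.

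Among the 15 receptors without a death domain 4 rose and 0 fell in OE mice, and 5 rose and 1 fell in Ctrl mice. Tnfrsf11a, Tnfrsf1b, Tnfrsf13b and Cd40 rose in both genotypes, Tnfrsf13c rose in Ctrl mice, and Tnfrsf19 fell in Ctrl mice.

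Tnfrsf11a (gene ID 21934, chromosome 1, 105780673 to 105849444) encodes RANK, the receptor that drives osteoclast formation when bound by RANK ligand. OE_20wk mice had 34.4, 70.3, 60.1 and 85.7 CPM, against 12.2, 24.8, 10.1 and 12.6 CPM in OE_8wk mice. Ctrl_20wk mice had 60.0, 89.0, 83.8 and 48.0 CPM, against 14.5, 10.2, 9.12 and 16.2 CPM in Ctrl_8wk mice. All 20-week libraries lay above all 8-week libraries, and OE_8wk replicate 2, which held epididymal transcripts, was the highest at 8 weeks. The rise was 4.19-fold in OE mice (log2 2.07 ± 0.33 SE, edgeR adjusted p = 0.000981) and 5.62-fold in Ctrl mice (log2 2.49 ± 0.34 SE, edgeR adjusted p = 0.000132), the largest log2 fold change among the 47 members tested in each genotype. Its ligand Tnfsf11 was scarce, at 0 to 0.247 CPM in OE_20wk, 0 to 0.55 CPM in Ctrl_20wk, 0.266 to 0.371 CPM in OE_8wk and 0.159 to 0.345 CPM in Ctrl_8wk libraries, and passed in neither genotype. The decoy receptor for that ligand, Tnfrsf11b (osteoprotegerin), had a log2 difference of -0.76 ± 0.52 in OE mice and -0.56 ± 0.51 in Ctrl mice (SE), and neither passed the edgeR test (adjusted p = 0.3 and 0.402). Without Ctrl_20wk replicate 4, at 16.3 CPM against 3.22 to 5.48 CPM in the other Ctrl_20wk libraries, the Tnfrsf11b value in Ctrl mice was -1.29 and passed (adjusted p = 0.0426).

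Tnfrsf1b (gene ID 21938, chromosome 4, 145212368 to 145246870) encodes the TNF receptor without a death domain, found on immune and endothelial cells. Its values were 112, 196, 169.7 and 222 CPM in OE_20wk mice, against 72.3, 95.1, 45.9 and 55.8 CPM in OE_8wk mice. Ctrl_20wk mice had 177, 193, 223 and 166 CPM, against 73.1, 39.3, 45.8 and 57.4 CPM in Ctrl_8wk mice. There was no overlap between the ages. It rose 2.60-fold in OE mice (log2 1.38 ± 0.25 SE, edgeR adjusted p = 0.00199) and 3.52-fold in Ctrl mice (log2 1.82 ± 0.26 SE, edgeR adjusted p = 0.000164). The other TNF receptor, Tnfrsf1a, had 228 to 269.9 CPM in OE_20wk and 192 to 261 CPM in OE_8wk mice, and 228 to 263 CPM in Ctrl_20wk and 181 to 287 CPM in Ctrl_8wk mice. Its log2 differences of 0.10 ± 0.13 and -0.01 ± 0.13 (SE) did not pass the edgeR test (adjusted p = 0.597 and 0.945).

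**Figure D3:**
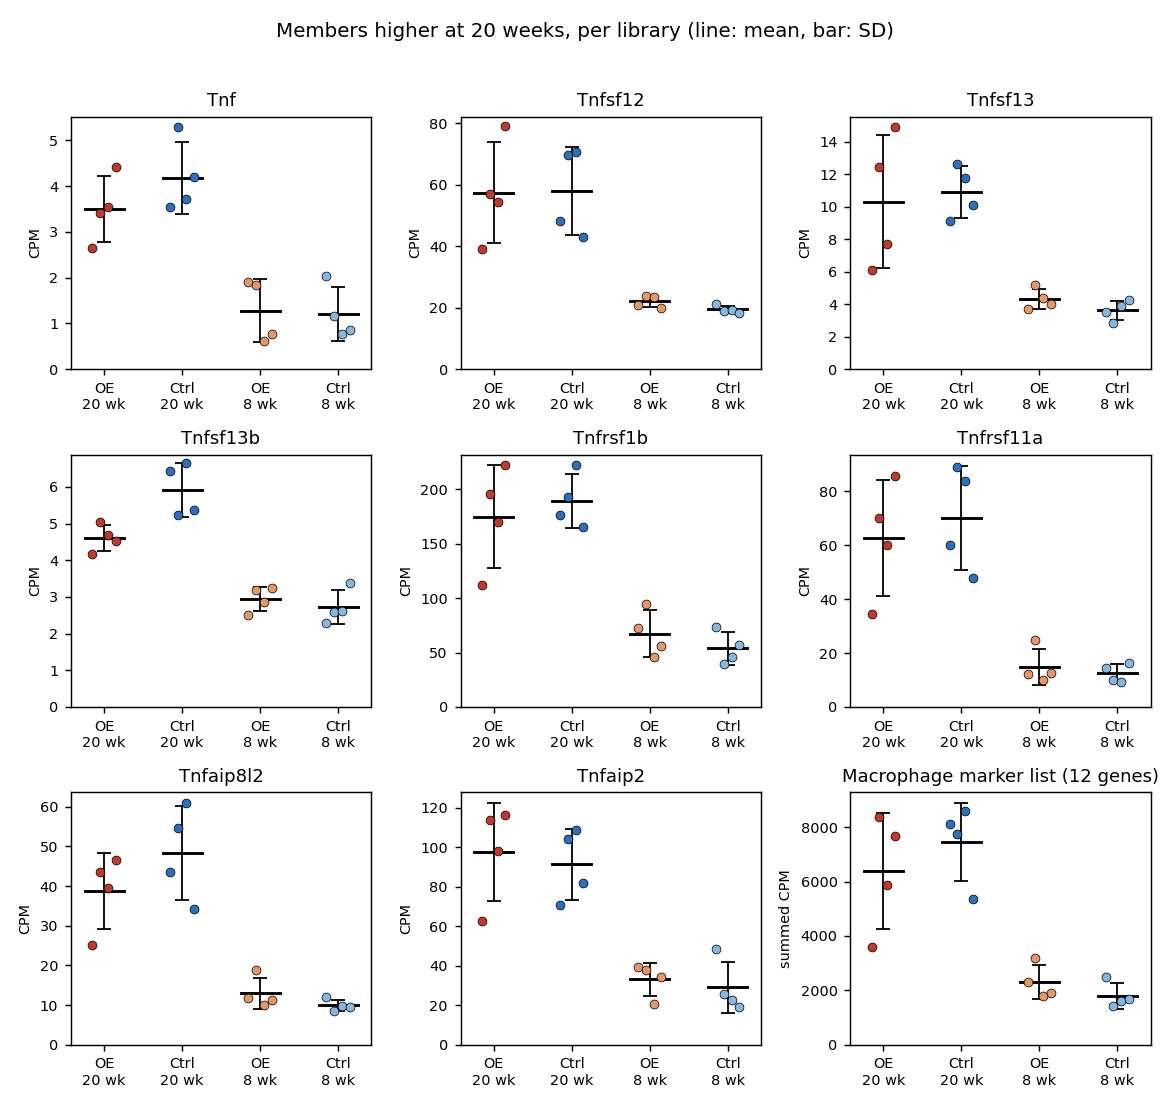
CPM of 8 members that rose with age, and summed CPM of the 12 macrophage markers, in each library. Points are replicates 1 to 4 from left to right, lines are means and bars are SD (n = 4 each). In all 9 panels the 20-week points lie above the 8-week points of the same genotype, and OE_20wk replicate 1 is the lowest OE_20wk point.

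Tnfrsf13b (gene ID 57916, chromosome 11, 61126283 to 61153170) has a span that overlaps that of Usp22. The gene encodes TACI, a receptor for BAFF and APRIL on B cells and some macrophages. It had 6.43, 14.0, 13.6 and 14.9 CPM in OE_20wk mice, against 6.99, 8.92, 5.32 and 4.93 CPM in OE_8wk mice. It had 19.0, 17.5, 22.8 and 15.4 CPM in Ctrl_20wk mice, against 6.67, 5.23, 5.78 and 5.91 CPM in Ctrl_8wk mice. OE_20wk replicate 1 lay among the OE_8wk values, whereas the Ctrl groups did not overlap. The rise was 1.87-fold in OE mice (log2 0.90 ± 0.24 SE, edgeR adjusted p = 0.0159) and 3.17-fold in Ctrl mice (log2 1.66 ± 0.25 SE, edgeR adjusted p = 0.000227). In OE mice the call was lost without OE_20wk replicate 2 or 4, or OE_8wk replicate 3 or 4, with adjusted p-values from 0.0502 to 0.0575, and in an edgeR fit of the 2 groups alone (adjusted p = 0.0680).

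Cd40 (gene ID 21939, chromosome 2, 165055614 to 165071654) encodes the receptor for CD40 ligand on B cells, macrophages and dendritic cells. Its values were 7.85, 10.7, 8.64 and 6.88 CPM in OE_20wk mice, against 6.22, 5.33, 3.34 and 4.82 CPM in OE_8wk mice. In Ctrl_20wk mice they were 13.9, 11, 14.2 and 10.2 CPM, against 6.98, 6.2, 5.44 and 4.56 CPM in Ctrl_8wk mice. Neither genotype showed overlap between the ages. Cd40 rose 1.73-fold in OE mice (log2 0.79 ± 0.20 SE, edgeR adjusted p = 0.0125) and 2.13-fold in Ctrl mice (log2 1.09 ± 0.20 SE, edgeR adjusted p = 0.00101).

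Tnfrsf19 (TROY), a receptor known from progenitor cells and the nervous system, fell in Ctrl mice. It had 0.579, 0.325, 0.352 and 0.926 CPM in Ctrl_20wk mice, against 0.637, 0.821, 2.54 and 2.12 CPM in Ctrl_8wk mice, a log2 fold change of -1.49 ± 0.55 (SE, edgeR adjusted p = 0.0429). In OE mice it had 0.663, 0.445, 0.21 and 0.924 CPM at 20 weeks and 1.59, 2.34, 1.45 and 0.808 CPM at 8 weeks, with a log2 difference of -1.46 ± 0.55 (SE, edgeR adjusted p = 0.069). The groups overlapped in both genotypes. The highest values of all libraries were those of Ctrl_8wk replicate 3, OE_8wk replicate 2 and Ctrl_8wk replicate 4, which also had the highest epididymal sums. The part of epididymal tissue in this fall was not tested. The Tnfrsf19 call in Ctrl mice was lost in edgeR fits without the low-count filter (adjusted p = 0.0614), of the 2 groups alone (0.0606) and with a block for replicate number (0.0684). Its call in Ctrl mice did not hold without Ctrl_20wk replicate 1, 2 or 3, Ctrl_8wk replicate 3 or 4, OE_20wk replicate 1 or 2, or OE_8wk replicate 1 or 3, with adjusted p-values from 0.0504 to 0.135. Tnfrsf12a, which binds TWEAK, had a log2 difference of 0.76 ± 0.28 in OE mice and 0.35 ± 0.28 in Ctrl mice (SE) and did not pass the edgeR test (adjusted p = 0.0644 and 0.331). In OE mice it passed with DESeq2 (adjusted p = 0.0318), in an edgeR fit of the 2 groups alone (0.0419), without OE_8wk replicate 1 (0.0401), Ctrl_8wk replicate 1 (0.0374) or Ctrl_8wk replicate 4 (0.0248), and without both libraries with epididymal transcripts (0.0267).

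The Ctrl values of 3 further receptors moved across the threshold with those libraries. Ltbr, the lymphotoxin beta receptor gene, had 86.1, 83.6, 82.4 and 80.8 CPM in Ctrl_20wk mice and 109, 102, 107 and 74.9 CPM in Ctrl_8wk mice, and the groups overlapped at Ctrl_8wk replicate 4 alone. Its log2 difference was -0.24 ± 0.12 (SE, edgeR adjusted p = 0.12), and -0.35 without both libraries (adjusted p = 0.00187). Tnfrsf14 (HVEM), a receptor for the ligand LIGHT, had 0.44 ± 0.19 (SE, edgeR adjusted p = 0.0784), and 0.66 without them (adjusted p = 0.00839). Tnfrsf4 (OX40), a receptor of activated T cells, had 0.73 ± 0.44 (SE, edgeR adjusted p = 0.191), and 1.25 without them (adjusted p = 0.0186). Without the same libraries Tnfrsf19 in Ctrl mice (adjusted p = 0.0920) and Tnfsf8 in Ctrl mice (adjusted p = 0.0728) lost their calls, and Tnfrsf23 in OE mice passed (adjusted p = 0.0174).

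Of the 5 receptors with a death domain, 1 rose in each genotype and 0 fell. This was Tnfrsf21, which encodes the death receptor DR6, with 40.8, 52.6, 63.5 and 58.6 CPM in OE_20wk mice against 37.0, 44.0, 25.9 and 32.3 CPM in OE_8wk mice, and 45.6, 45.1, 56.9 and 49.3 CPM in Ctrl_20wk mice against 40.9, 21.6, 29.8 and 36.9 CPM in Ctrl_8wk mice. The OE groups overlapped and the Ctrl groups did not. Its log2 fold changes were 0.63 ± 0.20 in OE mice and 0.61 ± 0.20 in Ctrl mice (SE, edgeR adjusted p = 0.0345 and 0.0263). The OE call was lost in an edgeR fit of the 2 groups alone (adjusted p = 0.0520). With a block for replicate number both calls were lost (edgeR adjusted p = 0.0713 in OE and 0.0520 in Ctrl mice). Leaving out a library ended the OE call in 6 cases (OE_20wk replicates 2, 3 and 4, OE_8wk replicates 1, 3 and 4, adjusted p from 0.0523 to 0.106) and the Ctrl call in 3 cases (Ctrl_20wk replicate 3, Ctrl_8wk replicates 2 and 3, adjusted p from 0.0653 to 0.0781). Fas had a log2 difference of -0.19 ± 0.22 in OE mice and -0.43 ± 0.22 in Ctrl mice (SE), and the TRAIL receptor Tnfrsf10b of 0.39 ± 0.29 and -0.16 ± 0.29. Neither passed, nor did Tnfrsf25, the death receptor for TL1A.

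The mouse genes Tnfrsf22, Tnfrsf23 and Tnfrsf26 neighbor each other on chromosome 7, and Tnfrsf22 and Tnfrsf23 encode decoy receptors for TRAIL in mice. As related copies the 3 genes may share reads. Tnfrsf26 (gene ID 244237, chromosome 7, 143607685 to 143627845) had 2.14, 2.62, 2.30 and 2.37 CPM in OE_20wk mice, against 0.966, 1.43, 1.54 and 0.873 CPM in OE_8wk mice. It had 2.81, 2.14, 2.24 and 2.1 CPM in Ctrl_20wk mice, against 1.27, 1.08, 1.07 and 0.866 CPM in Ctrl_8wk mice. The ages did not overlap, and the rise was 1.96-fold in OE mice (log2 0.97 ± 0.22 SE, edgeR adjusted p = 0.00598) and 2.17-fold in Ctrl mice (log2 1.11 ± 0.22 SE, edgeR adjusted p = 0.00139). Tnfrsf23 had 13.1 to 13.9 CPM in OE_20wk and 6.24 to 11.2 CPM in OE_8wk mice (log2 0.80 ± 0.28 SE, edgeR adjusted p = 0.0522), and it rose to 10.2 to 13.9 CPM in Ctrl_20wk mice, against 3.0 to 10.2 CPM in Ctrl_8wk mice (log2 0.90 ± 0.28 SE, edgeR adjusted p = 0.02). The OE groups did not overlap and the Ctrl groups did. The Ctrl call was lost without Ctrl_20wk replicate 3 (adjusted p = 0.0515) and in an edgeR fit of the 2 groups alone (0.0530). In OE mice Tnfrsf23 passed with DESeq2 (adjusted p = 0.0228) and in the fit of the 2 groups alone (0.0236), and it passed without OE_20wk replicate 1, OE_8wk replicate 1, Ctrl_8wk replicate 1 or Ctrl_8wk replicate 4 (adjusted p from 0.00787 to 0.0478). The third copy, Tnfrsf22, passed in neither genotype.

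Of the 8 Tnfaip genes 3 rose in both genotypes and 1 fell in Ctrl mice. The largest rise in both was that of Tnfaip8l2 (TIPE2), known to restrain signalling by receptors of immune cells. Tnfaip8l2 (gene ID 69769, chromosome 3, 95139521 to 95142416), whose span overlaps that of Lysmd1, had 25.1, 43.6, 39.4 and 46.6 CPM in OE_20wk mice, against 11.8, 18.7, 9.97 and 11.2 CPM in OE_8wk mice. Ctrl_20wk mice had 43.7, 54.6, 61.0 and 34.2 CPM, against 12.0, 8.59, 9.71 and 9.58 CPM in Ctrl_8wk mice. The ages stood well apart, with a 2.99-fold rise in OE mice (log2 1.58 ± 0.24 SE, edgeR adjusted p = 0.000698) and a 4.86-fold rise in Ctrl mice (log2 2.28 ± 0.24 SE, edgeR adjusted p = 4.21e-05).

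Tnfaip2 (gene ID 21928, chromosome 12, 111442450 to 111455018), a TNF-induced gene expressed in myeloid and endothelial cells, had 62.5, 114, 98 and 116 CPM in OE_20wk mice, against 39.3, 38.0, 20.9 and 34.4 CPM in OE_8wk mice. In Ctrl_20wk mice it had 70.7, 104, 109 and 81.7 CPM, against 48.3, 25.9, 22.6 and 19.3 CPM in Ctrl_8wk mice. It was 2.95-fold higher in OE_20wk mice (log2 1.56 ± 0.29 SE, edgeR adjusted p = 0.00226) and 3.15-fold higher in Ctrl_20wk mice (log2 1.66 ± 0.29 SE, edgeR adjusted p = 0.00075), with no overlap between the ages. Tnfaip8 (gene ID 106869), which encodes a regulator of cell death, had 52.6, 70.7, 62.8 and 70.7 CPM in OE_20wk mice, against 48.7, 48.9, 46.0 and 53.3 CPM in OE_8wk mice. It had 69.2, 75.3, 70.0 and 62.2 CPM in Ctrl_20wk mice, against 43.3, 51.3, 46.9 and 40.6 CPM in Ctrl_8wk mice. The OE groups overlapped at 1 library and the Ctrl groups did not. Its rises were smaller, 1.30-fold in OE mice (log2 0.38 ± 0.10 SE, edgeR adjusted p = 0.0145) and 1.52-fold in Ctrl mice (log2 0.60 ± 0.10 SE, edgeR adjusted p = 0.000513). The OE call was lost without OE_20wk replicate 2 (adjusted p = 0.0540) or 4 (adjusted p = 0.0543).

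Tnfaip1 (gene ID 21927, chromosome 11, 78522850 to 78536270), an adaptor of cullin ubiquitin ligases, fell in Ctrl mice by 0.29 ± 0.08 on the log2 scale (SE, edgeR adjusted p = 0.0148), to 87.3, 88.1, 88.4 and 87.2 CPM in Ctrl_20wk mice, against 120.5, 105, 109 and 94.5 CPM in Ctrl_8wk mice. In OE mice it had 92.6, 93.4, 90.3 and 94.6 CPM at 20 weeks and 115, 86.4, 97.2 and 97.9 CPM at 8 weeks, which overlapped (log2 -0.10 ± 0.08 SE, edgeR adjusted p = 0.428). Tnfaip3 (A20), the NF-kappaB target that edits ubiquitin chains and restrains the pathway, had 21.0 to 39.6 CPM in OE_20wk and 25 to 30.8 CPM in OE_8wk mice, and 21.8 to 41.9 CPM in Ctrl_20wk and 17.8 to 32.9 CPM in Ctrl_8wk mice. It passed in neither genotype, nor did Tnfaip6, Tnfaip8l1 or Tnfaip8l3.

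Markers of macrophages rose in the same comparisons, and those of other cells moved in either direction. The 12 macrophage genes, none of them at 0, summed to 3607 to 8382 CPM in OE_20wk against 1807 to 3193 CPM in OE_8wk libraries, and to 5349.8 to 8598 CPM in Ctrl_20wk against 1439 to 2502 CPM in Ctrl_8wk libraries. Of the 12 genes 11 rose in OE mice and 12 in Ctrl mice. The 9 dendritic cell genes summed to 310.3 to 726 CPM in OE_20wk against 80.6 to 128 CPM in OE_8wk libraries, and to 381 to 582 CPM in Ctrl_20wk against 89.4 to 155 CPM in Ctrl_8wk libraries. Single dendritic cell genes were mixed, with 2 higher and 2 lower in OE mice (median log2 0.03) and 3 higher and 1 lower in Ctrl mice (median log2 0.88). The 10 adipocyte genes went the other way, with 12729.8 to 23263 CPM in OE_20wk against 17951 to 35229 CPM in OE_8wk libraries and 9815 to 17350.1 CPM in Ctrl_20wk against 22788 to 28708 CPM in Ctrl_8wk libraries, and 7 of the 10 fell in each genotype. Of 7 mast cell genes 6 rose in each genotype, with a median log2 fold change of 1.68 in OE mice and 3.09 in Ctrl mice, and sums of 80.5 to 151 CPM in OE_20wk against 32.0 to 71.8 CPM in OE_8wk libraries and 143 to 295 CPM in Ctrl_20wk against 23.4 to 59.9 CPM in Ctrl_8wk libraries. Of 7 smooth muscle and pericyte genes 5 fell in OE mice and 6 in Ctrl mice, of 7 endothelial genes 1 and 6 fell, and of 8 mesothelial genes 6 and 3 fell. Smooth muscle and pericyte sums were 3878 CPM in OE_8wk replicate 2 and 3942 CPM in Ctrl_8wk replicate 4, the libraries with epididymal transcripts. Other 8-week libraries had sums of 845 to 1089 CPM and 20-week libraries 269 to 690 CPM. Of 9 stromal genes 1 rose and 1 fell in OE mice and 4 rose in Ctrl mice. Among 7 NK cell genes 0 were called in OE mice (median log2 -0.60) and 3 fell in Ctrl mice (median log2 -0.97). Among 12 T cell genes 0 were called in OE mice (median log2 -0.27) and 2 rose in Ctrl mice (median log2 0.84). Among 6 neutrophil genes tested 1 rose in OE mice (median log2 1.02) and 2 rose in Ctrl mice (median log2 1.29). The part of these cell types in the members' rises was not tested, and in bulk tissue more cells of a type and more RNA per cell cannot be told apart.

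Genes that release TNF, pathway components and target genes were read in lists without members. The background was 13.1% of all genes that rose and 9.91% that fell in OE mice. In Ctrl mice it was 19.6% that rose and 21.3% that fell. Of 25 TNF receptor adaptors and kinases 6 rose (24%) and 1 fell in OE mice (median log2 0.18), and 12 rose (48%) and 3 fell in Ctrl mice (median log2 0.23). The necroptosis kinase gene Ripk3 had a log2 fold change of 0.87 ± 0.21 in OE mice and 1.06 ± 0.21 in Ctrl mice (SE). Otulin, which removes linear ubiquitin, had 0.46 ± 0.11 and 0.56 ± 0.11, and the TNF receptor adaptor Tradd rose by 0.63 ± 0.14 in Ctrl mice (SE). Of the 8 genes for shedding and release of TNF, 3 rose (37.5%) and 1 fell in OE mice (median log2 0.17), and 3 rose (37.5%) and 2 fell in Ctrl mice (median log2 0.09). Adam17, the protease that frees TNF from the membrane, had 92.5, 149, 109.5 and 141 CPM in OE_20wk mice against 69.2, 71.2, 60.5 and 57.0 CPM in OE_8wk mice (log2 0.93 ± 0.16 SE, edgeR adjusted p = 0.00163), and 139.9, 129.8, 149.9 and 114 CPM in Ctrl_20wk mice against 81.5, 56.1, 56.6 and 53.3 CPM in Ctrl_8wk mice (log2 1.11 ± 0.17 SE, edgeR adjusted p = 0.000238). Timp3, the inhibitor of that protease, fell to 245, 274, 222 and 212 CPM in OE_20wk mice, against 400.1, 387, 413 and 419 CPM in OE_8wk mice (log2 -0.77 ± 0.11 SE, edgeR adjusted p = 0.000551), and to 227, 179.8, 163 and 206 CPM in Ctrl_20wk mice, against 316, 323, 333 and 372 CPM in Ctrl_8wk mice (log2 -0.79 ± 0.11 SE, edgeR adjusted p = 0.000138). Neither gene overlapped between the ages.

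Among 13 NF-kappaB subunits, inhibitors and kinases, 4 rose (30.8%) and 0 fell in OE mice (median log2 0.30), and 5 rose (38.5%) and 1 fell in Ctrl mice (median log2 0.41). Ikbkb, a kinase of the pathway, had log2 fold changes of 0.46 ± 0.08 and 0.67 ± 0.08, and the subunit gene Rel had 0.88 ± 0.22 and 1.13 ± 0.22 in OE and Ctrl mice (SE). Of 22 TNF and NF-kappaB target genes 5 rose (22.7%) and 0 fell in OE mice (median log2 0.42), and 4 rose (18.2%) and 1 fell in Ctrl mice (median log2 0.18). In Ctrl mice the share of targets that rose was close to that of all genes, 19.6%. Bcl2a1b, a survival gene, had 17.8 to 29.5 CPM in OE_20wk against 3.67 to 6.98 CPM in OE_8wk mice, and 24.1 to 37.2 CPM in Ctrl_20wk against 2.63 to 6.67 CPM in Ctrl_8wk mice. The adhesion molecule gene Icam1 had log2 fold changes of 0.66 ± 0.17 and 0.60 ± 0.17 (SE) in OE and Ctrl mice. The gene that fell in Ctrl mice was Ptgs2, at 0.406 to 1.88 CPM in Ctrl_20wk mice, against 959 CPM in Ctrl_8wk replicate 4, a library with epididymal transcripts, and 1.51 to 3.80 CPM in the other Ctrl_8wk libraries.

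Of 11 RANK target genes known from osteoclasts, 9 were tested, 5 rose (55.6%) and 0 fell in OE mice (median log2 1.44), and 5 rose (55.6%) and 1 fell in Ctrl mice (median log2 0.83). Calcr was at 0 in every library. Atp6v0d2, a proton pump subunit gene, had 140.4, 315, 281 and 464 CPM in OE_20wk mice against 10.3, 60.3, 3.11 and 5.07 CPM in OE_8wk mice (log2 3.93 ± 0.84 SE, edgeR adjusted p = 0.00483), and 253, 402, 375 and 245 CPM in Ctrl_20wk mice against 13.9, 3.39, 2.90 and 4.28 CPM in Ctrl_8wk mice (log2 5.72 ± 0.92 SE, edgeR adjusted p = 0.000403). The cathepsin K gene Ctsk had log2 fold changes of 2.57 ± 0.27 and 2.75 ± 0.27, and the cell fusion gene Dcstamp of 2.75 ± 0.52 and 2.84 ± 0.52 (SE) in OE and Ctrl mice. Acp5 fell by 0.87 on the log2 scale in Ctrl mice. The macrophage markers above rose in the same comparisons. The part of RANK signalling or of cell types in the rises of this list was not tested. Of 10 lymphotoxin target genes of lymphoid stroma 8 were tested, 2 rose (25%) and 1 fell in OE mice (median log2 0.25), and 4 rose (50%) and 1 fell in Ctrl mice (median log2 0.40). Relb, Nfkb2, Vcam1 and Icam1 of this list are also in the NF-kappaB or TNF target lists. Mmp9 is in both the TNF target and the RANK target list. Counts of the lists are therefore not separate observations. Cxcl13, a B-cell attracting chemokine, rose in Ctrl mice (log2 3.85 ± 1.26 SE, edgeR adjusted p = 0.0257), with 44.2, 2.65, 0.729 and 12.9 CPM in Ctrl_20wk against 1.17, 0.561, 1.32 and 1.12 CPM in Ctrl_8wk mice, the highest being Ctrl_20wk replicate 1. Beside these medians, the median over all genes was -0.03 in OE mice and -0.05 in Ctrl mice.

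The comparison of OE with Ctrl mice addressed how these genes differ where adipocytes carry extra LTA4H. At 20 weeks 0 of 47 members were called between OE_20wk and Ctrl_20wk by edgeR, where 0.0261% of all genes were called. The smallest adjusted p was 0.474, 6 members had an unadjusted p under 0.05 (3.97% of all genes did), and DESeq2 called 1 member lower, Tnfrsf13c (DESeq2 called 0.208% of all genes higher and 0.104% lower). The median log2 fold change of the members was -0.12 against 0.02 over all genes. OE_20wk libraries all lay above the Ctrl_20wk libraries for 1 member, Tnfaip1, and below them for 3, Tnfrsf13c, Tnfrsf13b and Tnfsf13b, where 1.24% of all genes lay above and 1.49% below. The 6 members with an unadjusted p under 0.05 were Tnfrsf13c, Ltb, Cd40, Tnfrsf13b, Tnfsf13b and Tnfrsf17, all with lower values in OE_20wk mice.

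Tnfrsf13c (gene ID 72049, chromosome 15, 82221742 to 82224380) encodes the BAFF receptor of B cells. It had 0.393, 0.346, 0.157 and 0.203 CPM in OE_20wk mice and 4.26, 1.14, 0.553 and 1.44 CPM in Ctrl_20wk mice. These came from 6 to 16 counts in OE_20wk and 22 to 147 counts in Ctrl_20wk libraries. The groups did not overlap, and Ctrl_20wk replicate 1 was far above the rest. The log2 difference was -2.74 ± 0.57 (SE, edgeR unadjusted p = 0.000272, adjusted p = 0.474), whereas DESeq2 gave -2.75 with an adjusted p of 0.00244. Without Ctrl_20wk replicate 1 it was -1.91, with an edgeR adjusted p of 0.984. In the age comparison, which uses the same Ctrl_20wk libraries, Tnfrsf13c rose in Ctrl mice to the values above, against 0.398, 0.713, 0.635 and 0.352 CPM in Ctrl_8wk mice (log2 1.81 ± 0.55 SE, edgeR adjusted p = 0.0179). These groups overlapped, and without Ctrl_20wk replicate 1 the log2 value was 0.99 and the adjusted p 0.0999. In OE mice the 8-week values were 0.347, 0.727, 0.591 and 0.349 CPM and the 20 against 8 weeks log2 difference was -0.86 ± 0.56 (SE, edgeR adjusted p = 0.275).

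Ltb (gene ID 16994, chromosome 17, 35194507 to 35196305) encodes lymphotoxin beta, the membrane partner of lymphotoxin alpha made by lymphocytes. OE_20wk mice had 2.21, 2.62, 2.2 and 1.28 CPM and Ctrl_20wk mice 13.8, 2.82, 2.34 and 3.19 CPM. Ctrl_20wk replicate 1 stood apart and the other libraries overlapped. The log2 difference was -1.41 ± 0.48 (SE, edgeR adjusted p = 0.996), and it was -0.42 without Ctrl_20wk replicate 1. At 8 weeks Ltb had 2.38, 3.74, 2.07 and 2.38 CPM in OE_8wk and 2.44, 1.86, 2.81 and 2.44 CPM in Ctrl_8wk mice. Between Ctrl_20wk and Ctrl_8wk mice the log2 difference was 1.21 ± 0.48 (SE, edgeR adjusted p = 0.0564), and 0.22 without Ctrl_20wk replicate 1 (adjusted p = 0.548). It passed without Ctrl_20wk replicate 2, 3 or 4 in turn (adjusted p from 0.0337 to 0.0433), where replicate 1 remained. Its partner Lta reached at most 0.55 CPM in any library.

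Cd40, whose values per library are given above, averaged 8.53 ± 1.64 CPM in OE_20wk and 12.3 ± 2.05 CPM in Ctrl_20wk mice (SD, n = 4 each), a log2 difference of -0.53 ± 0.20 (SE, edgeR adjusted p = 0.996). Tnfrsf13b averaged 12.2 ± 3.91 CPM in OE_20wk and 18.7 ± 3.14 CPM in Ctrl_20wk mice (SD, n = 4 each), with a log2 difference of -0.61 ± 0.24 (SE, edgeR adjusted p = 0.996). OE_20wk replicate 1 was the lowest for Tnfrsf13b, and Cd40 overlapped at OE_20wk replicate 2. BAFF itself, Tnfsf13b, averaged 4.61 ± 0.359 CPM in OE_20wk and 5.92 ± 0.73 CPM in Ctrl_20wk mice (SD, n = 4 each; log2 -0.36 ± 0.15 SE, edgeR adjusted p = 0.996). Tnfrsf17, the gene of the APRIL receptor BCMA, had 0.859, 0.79, 0.733 and 0.631 CPM in OE_20wk and 1.45, 1.0, 1.46 and 0.735 CPM in Ctrl_20wk mice (log2 -0.62 ± 0.27 SE, edgeR adjusted p = 0.996). Tnfsf13b did not overlap between the genotypes and Tnfrsf17 did, and none of these differences passed the edgeR test.

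**Figure D4:**
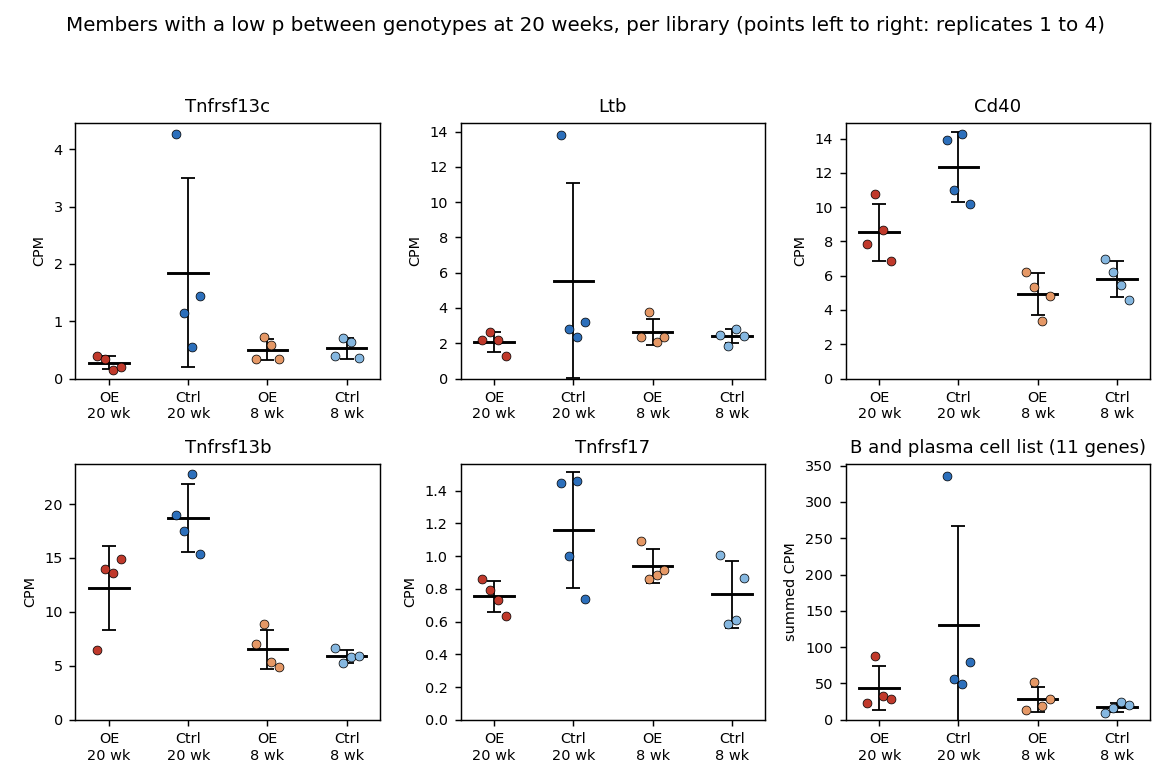
CPM of 5 members with an unadjusted p under 0.05 between OE_20wk and Ctrl_20wk mice, and summed CPM of 11 B and plasma cell markers, in each library. Points are replicates 1 to 4 from left to right, lines are means and bars are SD (n = 4 each). Ctrl_20wk replicate 1 is the highest point for Tnfrsf13c, at 4.26 CPM, for Ltb, at 13.8 CPM, and for the marker sum, at 335 CPM.

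B-cell markers differed between libraries too. The 11 B and plasma cell genes, of which Cr2 was at 0 in 2 of the 16 libraries and the others in none, summed to 23.3 to 88.3 CPM in OE_20wk and 48.9 to 335 CPM in Ctrl_20wk libraries, where Ctrl_20wk replicate 1 had 335 CPM and the other 3 had 48.9 to 80.0 CPM. Of the 11 genes 0 were called between OE_20wk and Ctrl_20wk and 8 had an unadjusted p under 0.05, with a median log2 difference of -2.16. The defining marker Cd79a had 0.879 to 2.62 CPM in OE_20wk and 2.64 to 24.9 CPM in Ctrl_20wk libraries. With age 1 of the 11 genes rose in OE mice and 9 in Ctrl mice. The sums were 13.7 to 51.3 CPM in OE_8wk and 9.03 to 24.1 CPM in Ctrl_8wk libraries. Macrophage sums overlapped between OE_20wk and Ctrl_20wk libraries, and 0 of 12 macrophage genes were called. All 12 were lower in OE_20wk mice (log2 -0.47 to -0.02, median -0.27), with 0 at an edgeR unadjusted p under 0.05. The 12 T cell markers summed to 77.2 CPM in Ctrl_20wk replicate 1, against at most 36.8 CPM in any other library. All 12 were lower in OE_20wk than Ctrl_20wk mice (log2 -1.35 to -0.25, median -0.89), 2 of them at an edgeR unadjusted p under 0.05. The 10 adipocyte genes were all higher (median log2 0.38), as were the 7 endothelial genes (median 0.25). Medians were 0.04 for NK cell, -0.22 for dendritic cell, -0.13 for neutrophil, -0.06 for stromal and 0.47 for smooth muscle and pericyte genes. None of these genes was called. Of 7 mast cell genes 5 had an unadjusted p under 0.05 between OE_20wk and Ctrl_20wk (median log2 -1.08), with sums of 80.5 to 151 CPM in OE_20wk and 143 to 295 CPM in Ctrl_20wk libraries that overlapped. Of 8 mesothelial genes 5 did (median log2 -0.93), with sums of 42.9 to 116 CPM in OE_20wk and 126 to 307 CPM in Ctrl_20wk libraries, which did not overlap. None of the mast cell or mesothelial genes was called. The part of these cell types in the 6 member differences was not tested.

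Tnf averaged 3.50 ± 0.724 CPM in OE_20wk and 4.18 ± 0.783 CPM in Ctrl_20wk mice (SD, n = 4 each). The groups overlapped, and the log2 difference was -0.26 ± 0.38 (SE, edgeR adjusted p = 0.996). The 5 receptors with a death domain had log2 differences between 0.05 and 0.39, the 15 without one between -2.74 and 0.19, and the 15 ligands tested between -1.41 and 0.28. The 8 Tnfaip genes lay between -0.32 and 0.75, where Tnfaip1, with no overlap, was 1.06-fold higher in OE_20wk mice (log2 0.08 ± 0.08 SE, edgeR adjusted p = 0.996).

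At 8 weeks 0 of 47 members were called between OE_8wk and Ctrl_8wk, where 0.0208% of all genes were called, 0 had an unadjusted p under 0.05 (2.21% of all genes did), and DESeq2 also called 0, where it called 0.0521% of all genes higher and 0.0261% lower. For 0 members did the OE_8wk libraries lie all above or all below the Ctrl_8wk libraries, against 0.787% of all genes above and 0.448% below. The median log2 fold change of the members was 0.11 against 0.00 over all genes. The smallest unadjusted p-values belonged to Tnfaip8l1, Tnfaip8l2, Tnfaip1 and Tnfrsf1b, and each had an edgeR adjusted p of 1.

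Tnfaip8l1 (gene ID 66443, chromosome 17, 56162439 to 56184249), whose product is related to that of Tnfaip8, had 6.24, 7.89, 7.42 and 6.72 CPM in OE_8wk and 6.85, 5.57, 6.30 and 5.44 CPM in Ctrl_8wk mice (log2 0.23 ± 0.14 SE). At 20 weeks it had 6.85, 7.06, 6.78 and 5.14 CPM in OE_20wk and 7.97, 6.36, 6.11 and 6.37 CPM in Ctrl_20wk mice (log2 -0.05 ± 0.14 SE). The groups overlapped at both ages. Tnfaip8l2 averaged 13.0 ± 3.94 CPM in OE_8wk and 9.96 ± 1.43 CPM in Ctrl_8wk mice (SD, n = 4 each; log2 0.38 ± 0.23 SE), and Tnfrsf1b 67.3 ± 21.5 CPM in OE_8wk and 53.9 ± 14.8 CPM in Ctrl_8wk mice (SD, n = 4 each; log2 0.32 ± 0.25 SE). For both, OE_8wk replicate 2, which held epididymal transcripts, was the highest OE_8wk library. Tnfaip1 had a log2 difference of -0.12 ± 0.08 (SE) and its groups overlapped. Tnf averaged 1.28 ± 0.683 CPM in OE_8wk and 1.21 ± 0.583 CPM in Ctrl_8wk mice (SD, n = 4 each), a log2 difference of 0.09 ± 0.38 (SE, edgeR adjusted p = 1). Without the libraries with epididymal transcripts that value was -0.27.

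**Figure D5:**
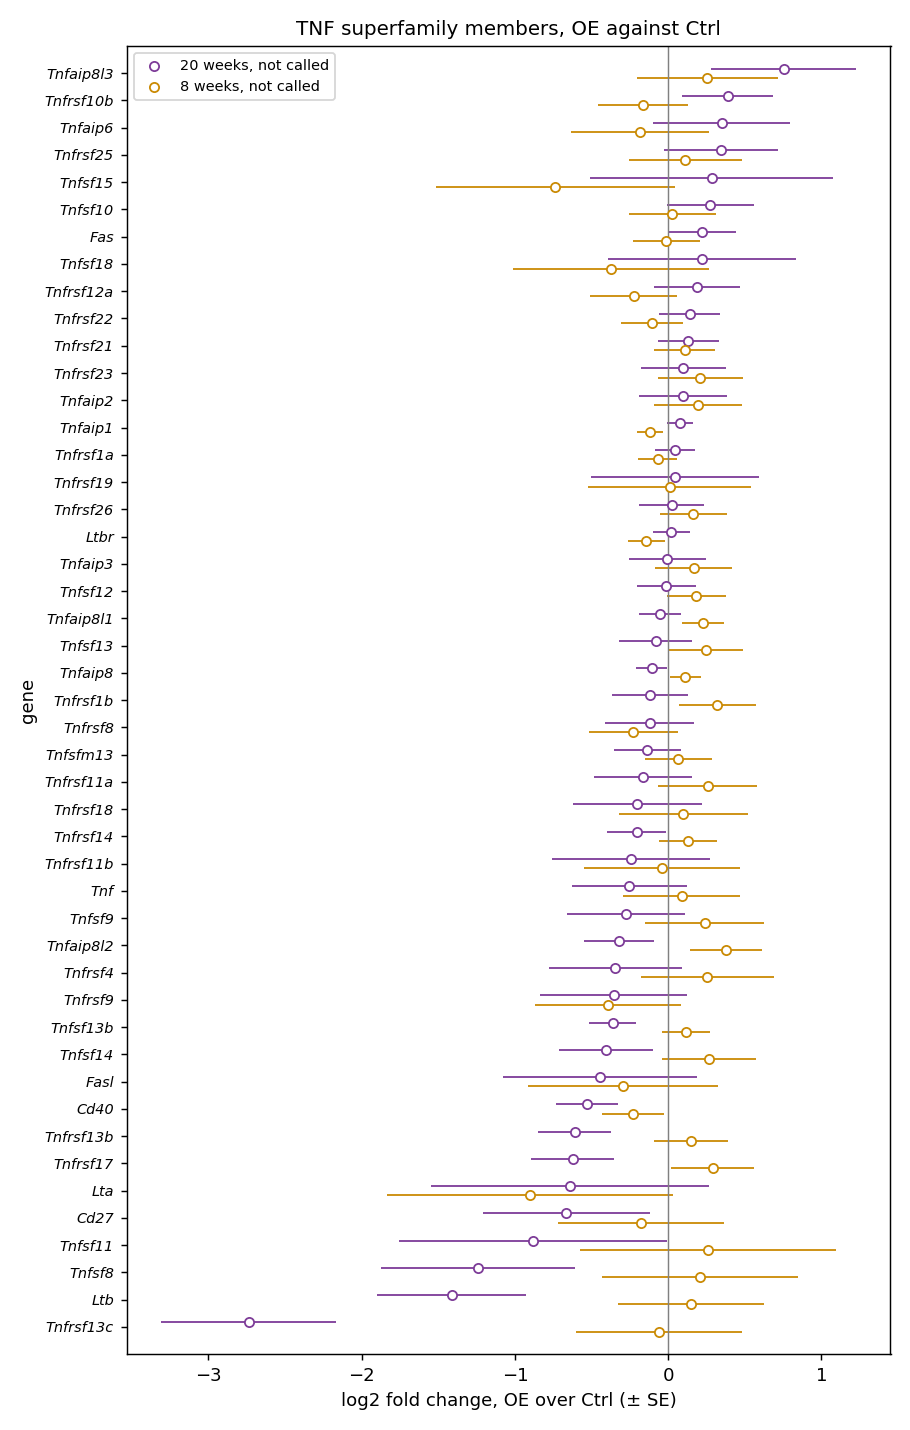
Log2 fold change of OE over Ctrl mice for the 47 members tested, with bars of 1 SE, at 20 weeks (purple) and at 8 weeks (orange). All points are open because 0 members were called at either age. Genes are ordered by their value at 20 weeks, with Tnfrsf13c lowest at -2.74.

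Whether the genotype difference itself changed with age was tested as an interaction, (OE_20wk minus Ctrl_20wk) minus (OE_8wk minus Ctrl_8wk). By edgeR 0 of 47 members were called, where 0% of all genes were called, 5 members had an unadjusted p under 0.05 (3.39% of all genes did), and DESeq2 called 0, where it called 0.104% of all genes higher and 0.0521% lower. The smallest adjusted p was 0.982. The 4 members with the smallest p had negative values, which were -2.68 ± 0.78 for Tnfrsf13c, -0.91 ± 0.38 for Tnfrsf17, -1.56 ± 0.68 for Ltb and -0.76 ± 0.34 for Tnfrsf13b (log2 ± SE). Tnfrsf17 had 1.09, 0.862, 0.887 and 0.917 CPM in OE_8wk and 1.01, 0.583, 0.612 and 0.866 CPM in Ctrl_8wk mice, beside its lower OE_20wk than Ctrl_20wk values given above. Without Ctrl_20wk replicate 1 the interaction was -1.86 for Tnfrsf13c and -0.57 for Ltb. The value for Tnf was -0.34 ± 0.54 (SE, edgeR adjusted p = 0.982). The calls of Tnfrsf13c, Tnfrsf23 and Tnfsf8 with age in Ctrl mice and not in OE mice are not shown to differ between the genotypes.

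None of the 6 pathway lists had a gene called between genotypes at either age or in the interaction. Between OE_20wk and Ctrl_20wk mice an unadjusted p under 0.05 was reached by 1 of 8 genes for shedding and release and 1 of 8 lymphotoxin target genes, and by 0 genes of the other 4 lists. Between OE_8wk and Ctrl_8wk mice it was reached by 1 of 25 adaptors and kinases, 1 of 8 genes for shedding and release and 2 of 9 RANK target genes. In the interaction it was reached by 1 gene each of the NF-kappaB, RANK target and lymphotoxin target lists. Median log2 differences of the lists lay between -0.14 and 0.10 at 20 weeks and between -0.12 and 0.13 at 8 weeks.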

How the data were processed

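RNA-seq of epididymal white adipose tissue from 16 male mouse libraries was analysed, 4 in each of 4 groups. Libraries were made with a stranded mRNA kit, per the labels. Per the submitters' processing notes, bcl2fastq 2.20.0, Trimmomatic, HISAT2 2.1.0 and StringTie 2.1.3b were used with build mm10; the strand setting and the annotation are not given in the sources used here. The authors deposited read counts per gene, with TPM and FPKM values beside them. The FPKM values the authors deposited were not used. Counts were tested and deposited TPM was used for levels between genes.

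The members were found by symbol and gene type. Counts were filtered with filterByExpr (minimum count 10), scaled by TMM and fitted in edgeR 4.0.16 under R 4.3.3 with limma 3.58.1, with 4 group means, robust quasi-likelihood dispersions and 12 residual degrees of freedom. The Benjamini-Hochberg adjustment ran over 19189 genes, with calls made below 0.05. Folds are log2 differences of fitted means. Their SE is not reported by the fit and was taken as the absolute log2 value divided by the square root of the quasi-likelihood F statistic. The pipeline was tested on simulated data with changes set between OE_20wk and Ctrl_20wk libraries. That simulation did not give single libraries epididymal transcripts. Total counts of 33626901 to 67576994 per library set the precision of low genes. Alternatives were RLE factors, no filter, DESeq2 1.42.0, fits of the groups compared only, a replicate block, leaving out each library, and leaving out 2 libraries with epididymal transcripts or 3 libraries (Ctrl_8wk, OE_8wk and OE_20wk replicate 1) together.

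Members and lists were chosen with earlier results of these data known. Members given in full were Tnf, the 8 rising and 8 falling called members with the smallest adjusted p per age comparison and the 4 smallest p-values in each other comparison; further members were named after their values were seen. RefSeq spans of 18 of the 50 members overlap another gene, and such reads may be shared. Members that overlap a protein-coding gene outside the family are Tnfrsf13b (Usp22), Tnfaip8l1 (Mydgf), Tnfaip8l2 (Lysmd1), Tnfrsf12a (Hcfc1r1) and Tnfrsf4 (Sdf4). Promoters are RefSeq GRCm38.p6 sequences. Figures used matplotlib 3.10.9 under Python 3.11.15.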

Additional observations from a re-analysis of the deposited data

Results flagged for a closer look

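Among 76 groups of 4 values from 19 members, 5 held a library whose gap to the nearest of the others passed Dixon's critical value, where chance passes about 1 in 20 groups. Ltb had 13.8 CPM in Ctrl_20wk replicate 1, against 2.34 to 3.19 CPM in the other Ctrl_20wk libraries. Tnfaip8l1 had 5.14 CPM in OE_20wk replicate 4, against 6.78 to 7.06 CPM in the other OE_20wk libraries. The same gene had 7.97 CPM in Ctrl_20wk replicate 1, against 6.11 to 6.37 CPM in the other Ctrl_20wk libraries. Tnfrsf11a had 24.8 CPM in OE_8wk replicate 2, against 10.1 to 12.6 CPM in the other OE_8wk libraries. Tnfrsf13b had 6.43 CPM in OE_20wk replicate 1, against 13.6 to 14.9 CPM in the other OE_20wk libraries.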

How the results depend on the processing

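Over all alternatives run, 10 to 18 members were called between OE_20wk and OE_8wk mice and 16 to 21 between Ctrl_20wk and Ctrl_8wk mice. Leaving out 1 library at a time gave 10 to 16 and 16 to 21 calls. The lowest, 10, came without OE_20wk replicate 4. Without the 2 libraries with epididymal transcripts there were 16 and 20 calls. Without Ctrl_8wk, OE_8wk and OE_20wk replicate 1 together, Tnfaip8l3, Tnfsf9 and Tnfsf15 passed in Ctrl mice (edgeR adjusted p = 0.00911, 0.0484 and 0.0268). In that fit Tnfrsf10b, Tnfrsf12a, Tnfrsf22 and Tnfrsf23 passed in OE mice (0.0167, 0.0246, 0.0498 and 0.00975), and Tnfsf8 lost its Ctrl call (0.0746). Without Ctrl_20wk replicate 4, Tnfrsf17 passed in Ctrl mice (edgeR adjusted p = 0.0391). The labels do not say that equal replicate numbers pair animals. Of 24 same-numbered pairs, which include pairs of an 8-week with a 20-week library, 2 had deviations correlated over 0.1 (r from -0.60 to 0.83). Both joined OE_8wk to Ctrl_8wk libraries, replicate 1 at r = 0.83 and replicate 4 at r = 0.28. Pairs with different numbers were not compared, so these values do not decide whether libraries were paired. With the replicate block 13 and 16 members were called with age, and 0 between genotypes or in the interaction. The genotype comparisons and the interaction gave 0 members under every alternative run except DESeq2 at 20 weeks, which called 1, Tnfrsf13c; the cause was not tested.

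The log2 difference of Tnf between OE_8wk and Ctrl_8wk mice, 0.09, turned negative without OE_8wk replicate 1 (-0.17), OE_8wk replicate 2 (-0.13), Ctrl_8wk replicate 3 (-0.07) or Ctrl_8wk replicate 4 (-0.05) and without both libraries with epididymal transcripts (-0.27). Leaving out 1 library at a time it ranged from -0.17 to 0.46. The Tnf interaction was 0.014 without those 2 libraries, against -0.34 with them. The cause was not tested. Low counts limit Tnfrsf13c, Tnfsf8, Tnfrsf19 and the 3 members not tested.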
